A study of Mus musculus with 388 samples.

Results

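A panel of marker genes of pericytes and vascular smooth muscle cells was followed in single cells of mouse bone marrow stroma. The panel held Rgs5, Abcc9, Kcnj8, Acta2, Myh11, Tagln, Notch3, Mcam, Cspg4 and Myl9, taken by symbol from a table of 25000 genes, and all 10 had counts. Every cell came from 2-month-old C57BL/6 mice with the genotype KitMerCreMer; R26tdTomato, with tamoxifen given at embryonic stages E12.5 and E14.5. In this model a tamoxifen-dependent Cre made from the Kit locus switches on a red reporter, and the reporter marks a cell and its later progeny. Cells that had been sorted as CD45-, Ter119-, CD31- and PDGFRα+ were compared between the reporter-marked Tomato+ group and the Tomato- group. Both groups carried the same alleles and had the same tamoxifen treatment.

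Mural cells wrap blood vessels. Pericytes sit on capillaries, and smooth muscle cells form the contractile layer of arterioles and arteries. Endothelial cells recruit them through platelet-derived growth factor B and its receptor, encoded by Pdgfrb, and contact them through Jagged ligands and the receptor NOTCH3. In bone marrow, the leptin receptor gene Lepr marks perivascular stromal cells that make the niche factors CXCL12 and KIT ligand, and these stromal cells share some genes with pericytes.

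Each deposited sample is 1 cell, and the animals behind the cells are not named in the labels. Each group therefore counts as 1 sample, and no test between groups was possible: values below carry exact 95% intervals that cover counting error only. Of the 388 cells, 386 held at least 1000 genes and 10000 counts and were kept; the 2 left out were Tomato+. The kept cells held a median of 679645 counts, between 18031 and 3833473, with 726174 in Tomato+ and 637863 in Tomato- cells. The cell titles give 2 orders and, within them, sets whose names begin with P (Tomato+) or N (Tomato-). Order 1 held Tomato+ sets P1, P2 and P3 of 94, 5 and 38 kept cells and the Tomato- set N2 of 60 cells. Order 2 held Tomato+ sets P1 and P2 of 24 cells each and Tomato- sets N1 and N2 of 71 and 70 cells. All 386 cells had at least 5 Lepr counts, and the median cell held 13 of 14 genes listed for Lepr+ stroma. Lepr was under 1000 CPM (a gene's counts per 1000000 counts of the cell or group) in 28 Tomato+ and 38 Tomato- cells.

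The proximal promoters of 4 members are given first, as examples of members found in few and in many cells. Acta2 was present in 7 cells and Rgs5 in 46, with most of its counts in 1 cell, while Notch3 and Myl9 were the 2 most widespread members. RefSeq promoter sequences of build GRCm38.p6, running from 250 bases before to 50 bases after the annotated start, were matched for 8 of the 10 members. Capitals mark the CArG box, the serum response factor site made of 2 C, 6 A or T and 2 G, or the same box with 1 G or C inside. The strands are Rgs5 and Myl9 plus, Acta2 and Notch3 minus, and each is written 5′ to 3′ in the direction of the gene. The windows are chr1:169655251-169655550 for Rgs5, chr19:34255324-34255623 for Acta2, chr17:32166841-32167140 for Notch3 and chr2:156775214-156775513 for Myl9.
Rgs5: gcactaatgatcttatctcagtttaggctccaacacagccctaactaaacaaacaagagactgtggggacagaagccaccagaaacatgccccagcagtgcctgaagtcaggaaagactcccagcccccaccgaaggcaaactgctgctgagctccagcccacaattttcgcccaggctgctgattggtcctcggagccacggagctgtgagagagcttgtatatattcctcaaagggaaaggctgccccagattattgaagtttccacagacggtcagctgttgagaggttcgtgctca
Acta2: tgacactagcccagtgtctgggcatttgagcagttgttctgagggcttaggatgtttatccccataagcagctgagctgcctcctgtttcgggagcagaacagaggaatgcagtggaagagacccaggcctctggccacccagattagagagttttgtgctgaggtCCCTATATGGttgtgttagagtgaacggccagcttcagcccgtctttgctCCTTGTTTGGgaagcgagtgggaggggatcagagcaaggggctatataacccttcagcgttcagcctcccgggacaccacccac
Notch3: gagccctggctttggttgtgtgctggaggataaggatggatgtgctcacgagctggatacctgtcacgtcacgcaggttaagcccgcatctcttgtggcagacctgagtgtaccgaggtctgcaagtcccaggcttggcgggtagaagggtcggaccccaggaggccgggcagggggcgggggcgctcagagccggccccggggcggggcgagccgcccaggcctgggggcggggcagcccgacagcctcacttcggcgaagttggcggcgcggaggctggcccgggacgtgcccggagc
Myl9: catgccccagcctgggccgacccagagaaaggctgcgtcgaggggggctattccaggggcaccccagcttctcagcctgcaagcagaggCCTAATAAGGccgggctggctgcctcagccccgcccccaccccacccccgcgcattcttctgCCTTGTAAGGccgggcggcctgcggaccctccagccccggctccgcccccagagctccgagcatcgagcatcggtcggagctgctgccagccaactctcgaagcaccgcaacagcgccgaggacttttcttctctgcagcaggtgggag
The Myl9 window held an exact box, CCTAATAAGG, from base -161 to -152, and a variant, CCTTGTAAGG, from -99 to -90. The Acta2 window held variants CCCTATATGG from -84 to -75 and CCTTGTTTGG from -34 to -25. The other 6 windows held neither form. Across 32851 promoters of the same length, 1.63% held the exact box and 8.50% held the form with 1 G or C inside. The box reads the same on both strands. The word TGGGAA, part of the site of the Notch partner RBPJ, was found on either strand in Abcc9, Kcnj8 and Acta2, and in 25.6% of all promoters; the Acta2 match overlaps its second CArG variant. A match in these letters is a description and not a bound site.

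Detection divided the panel. With presence set at 5 or more counts, Myl9, the regulatory light chain of smooth muscle myosin, was present in 223 of 386 cells, and Notch3 in 45.9% of cells. Abcc9 was present in 54 cells, Rgs5 in 46, Tagln in 19 and Myh11 in 16. Mcam was present in 12, Kcnj8 in 10, Acta2 in 7 and Cspg4 in 4. Per kilobase of exon, the level over all cells was highest for Myl9 at 155.5 CPM per kb, followed by Rgs5 at 29.9, Kcnj8 at 14.3 and Notch3 at 12.46. The other 6 members lay between 4.79 CPM per kb for Abcc9 and 0.138 for Cspg4. A single cell held 78.8% of all Rgs5 counts and 62.9% of all Myh11 counts, and another held 70.8% of all Kcnj8 counts. For Notch3 and Myl9, the highest cell held 4.80% and 3.88% of all counts.

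**Figure D1:**
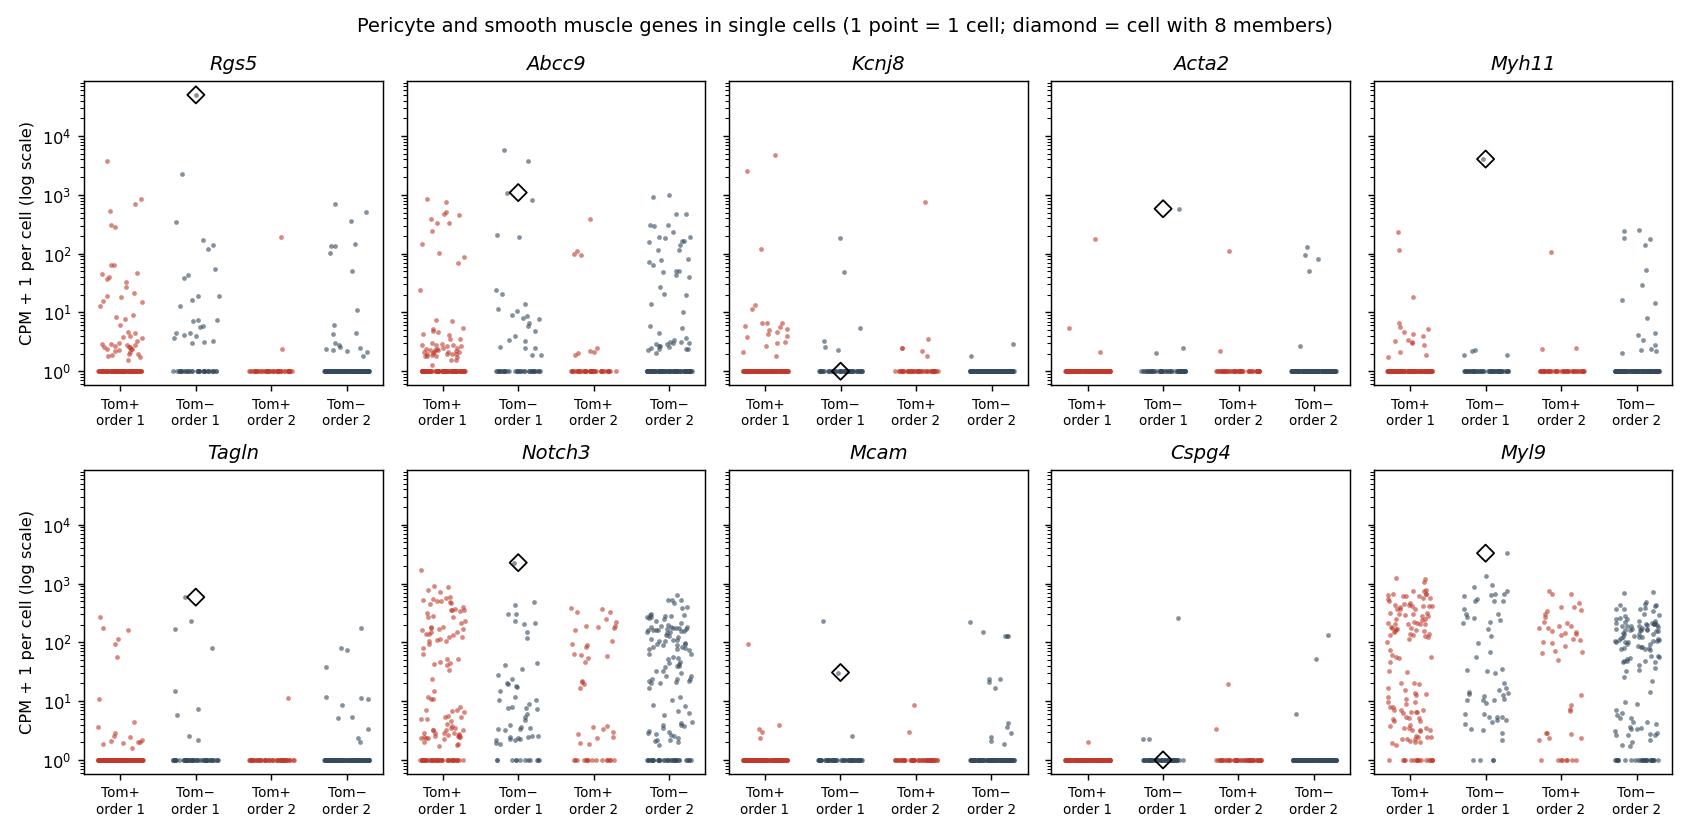
CPM + 1 of each member in every kept cell, on a log axis, for Tomato+ (red, left of its pair) and Tomato- (dark) cells of each title order, with 1 point per cell. The diamond marks 1 Tomato- cell of order 1 with 8 of the 10 members: it sits at the top of the Rgs5, Acta2, Myh11, Tagln, Notch3 and Myl9 panels and at 0 CPM for Kcnj8 and Cspg4.

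For comparison, the counts of all Tomato+ and of all Tomato- cells were added up separately in each order, and a gene was called when the ratio of CPM + 1, Tomato+ over Tomato-, passed 1.5-fold in the same direction in both orders with at least 5 CPM in the higher group of each. By this rule 4 of the 10 members were called, or 4 of the 6 that reached the level minimum in both orders. Of the 9574 genes that reached it, 11.1% were called. Kcnj8 was higher in Tomato+ cells, a direction called in 5.15% of genes, and Rgs5, Abcc9 and Myh11 were lower, a direction called in 5.98%. Tagln, Acta2, Mcam and Cspg4 did not reach the level minimum in both orders. Notch3 and Myl9 reached it and were not called. The median log2 ratio of the 10 members was -1.66 (-1.83 in order 1 and -1.04 in order 2), and the median of all genes tested was 0.02. Without the single 8-member cell the members' median was -0.65, and without 5 cells carrying endothelial genes it was -2.03. Within the 7 library codes of order 1 that hold both groups, with order 2 unchanged, the mean log2 ratios were -2.99 for Rgs5, -1.59 for Abcc9, -2.46 for Myh11 and 0.69 for Kcnj8, and Kcnj8 was no longer called.

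**Figure D2:**
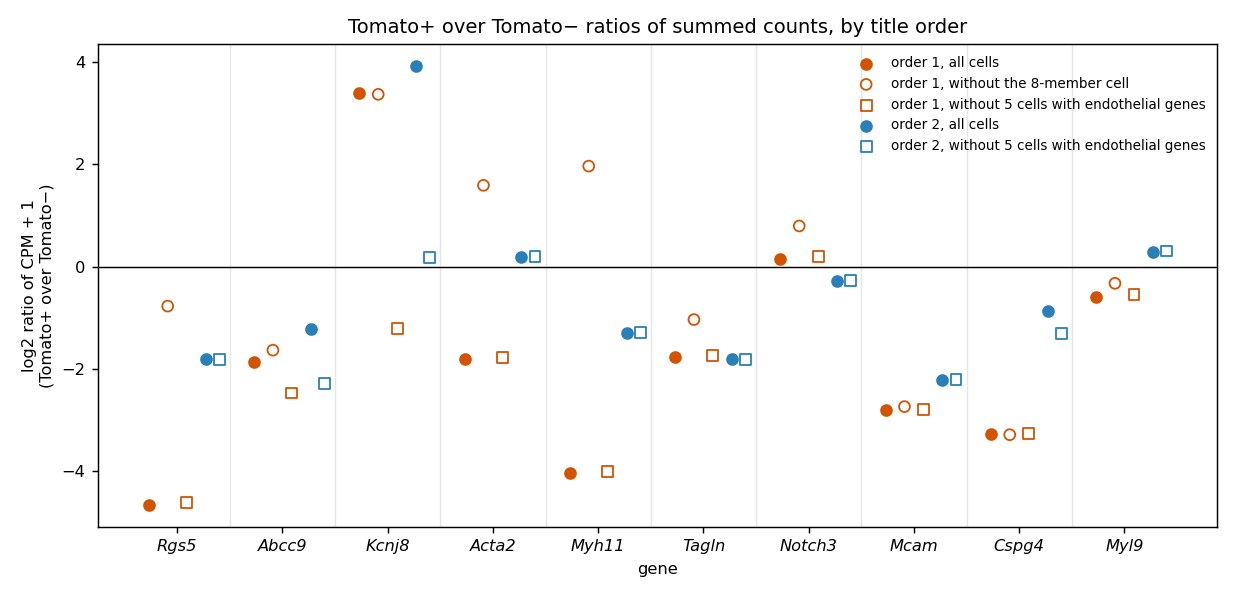
Log2 ratio of CPM + 1, Tomato+ over Tomato-, for each member in order 1 (orange) and order 2 (blue), with open symbols for the same ratio after single cells were left out. Without the 8-member cell Myh11 moved to 1.97 in order 1, and without the 5 cells with endothelial genes Kcnj8 moved to -1.21 in order 1 and 0.19 in order 2.

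Rgs5 encodes a regulator that shortens G protein signalling and is among the most used pericyte genes. Its gene lies on chromosome 1 at 169655501-169695813 (GRCm38, plus strand). In order 1 it stood at 36.3 CPM in Tomato+ cells (95% interval 35.1 to 37.4) and at 937 CPM in Tomato- cells (926 to 947). In order 2 it stood at 4.05 CPM in Tomato+ cells and at 16.8 CPM in Tomato- cells. The median cell had 0 CPM in all 4 groups, and the highest cells reached 3747 CPM among Tomato+ and 50179 CPM among Tomato- cells of order 1. The groups overlapped, with Rgs5 present in 24 Tomato+ cells (17.5%, 11.6 to 24.9) and 12 Tomato- cells (20%, 10.8 to 32.3) of order 1. The log2 ratio of order 1 was -4.65 with all cells and -0.77 without the 8-member cell, when the Tomato- level was 62.5 CPM. The ratio of order 2, which does not contain that cell, was -1.81.

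Most other Rgs5-rich cells were also rich in Lepr, as were most of the kept cells. Lepr was under 1000 CPM in 66 of all 386. At least 100 CPM of Rgs5 was found in 20 cells, 7 Tomato+ and 13 Tomato-, and 16 of them had 1000 CPM of Lepr or more. The next highest cell after the 8-member cell, cell P1C9 of order 1 (Tomato+), had 3747 CPM of Rgs5 with 4378 CPM of Lepr and 66348 CPM of Cxcl12. Cell N2B4 of order 1 (Tomato-) had 2273 CPM of Rgs5 with 7474 CPM of Lepr. Median Lepr was 3942 CPM in the 46 cells with Rgs5 and 3882 CPM in the others.

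Low Rgs5 counts followed the library. Columns of order 1 carry 12 library codes, and in code F0000181, which holds the 8-member cell with 28781 Rgs5 counts, all 20 cells had Rgs5 counts. The 19 other cells there ranged from 6 to 1479 counts with a median of 13, which is 0.0452% of the highest. In code D76 the highest cell held 1494 counts and the median of the others was 1. Columns of the other order carry no library code, so their title set was used in its place. Counts under 1% of the highest count in the same code or title set were then set to 0. After this filter, cells with Rgs5 numbered 27 in place of 46, and cells with Kcnj8 numbered 7 in place of 10. The other 8 members lost at most 7 cells each. For Rgs5 in order 1, the filter left 12 of the 24 Tomato+ cells and 6 of the 12 Tomato- cells. Cell N2B1 of code F0000181, among the cells with at least 100 CPM of Rgs5, had 21 Rgs5 counts. Lepr, with 5 or more counts in all 386 cells, was left in 331. The origin of these low counts was not tested.

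**Figure D3:**
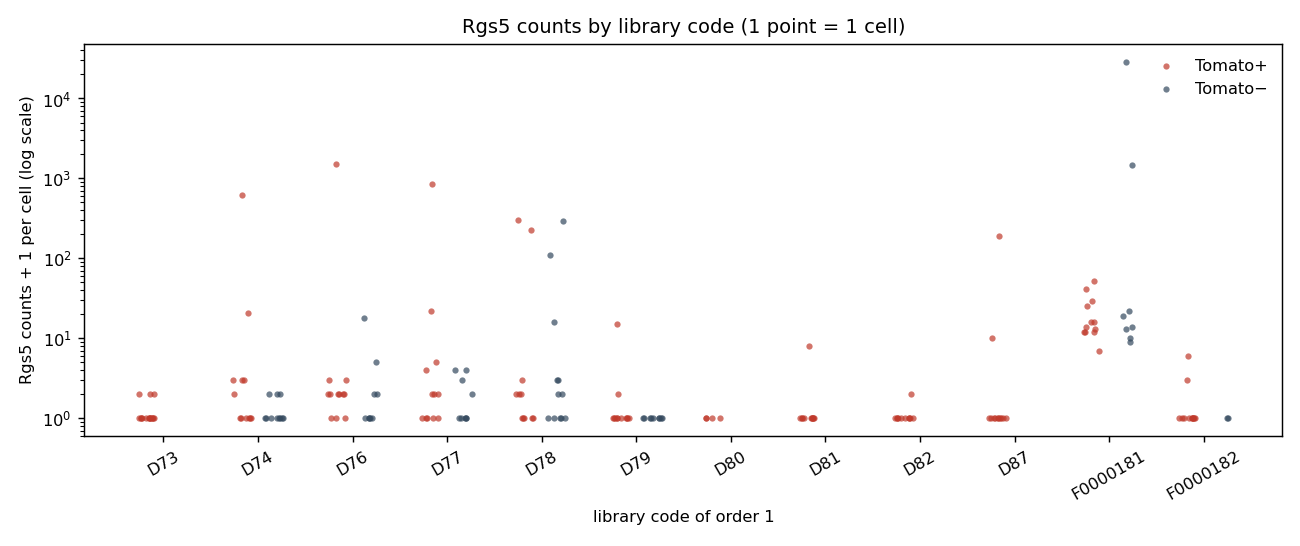
Rgs5 counts + 1 per cell, on a log axis, for the 12 library codes of order 1, with Tomato+ cells (red) left of Tomato- cells (dark). Code F0000181, with the highest cell at 28781 counts, is the one in which all 20 cells lie above 0.

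Abcc9 and Kcnj8 encode the regulatory subunit SUR2 and the pore Kir6.1 of an ATP-sensitive potassium channel of mural cells, and lie beside each other on chromosome 6 (142587862-142702315 and 142564837-142571614, both minus strand). Their ratios had opposite signs. In order 1 Abcc9 stood at 32.03 CPM in Tomato+ and 118.6 CPM in Tomato- cells, and in order 2 at 12.9 CPM in Tomato+ and 31.2 CPM in Tomato- cells. The log2 ratios were -1.86 and -1.21. In order 2 it was present in 4 of 48 Tomato+ cells (8.33%, 2.32 to 19.98) and 30 Tomato- cells (21.3%, 14.8 to 28.96), and in order 1 in 10.2% of Tomato+ and 10% of Tomato- cells. Its 2 highest cells, N2A1 and N2G10 of order 1 (Tomato-), had 5817 and 3798 CPM of Abcc9 with 5003 and 15576 CPM of Lepr and no other member present. Of 36 cells with 100 CPM of Abcc9 or more, 32 had at least 1000 CPM of Lepr and 4 had less. Beside these, 66 of all 386 kept cells had less. Abcc9 shares exon sequence with 5330439B14Rik on the opposite strand, and reads of the pair cannot be told apart without strand.

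Kcnj8 stood at 81.6 CPM in Tomato+ and 6.87 CPM in Tomato- cells of order 1, and at 14.5 CPM in Tomato+ and 0.0215 CPM in Tomato- cells of order 2, the last from 2 counts. The log2 ratios were 3.39 and 3.92. Most of the counts lay in 3 Tomato+ cells. Cells P3B1 and P3B2 of order 1 held 4830 and 2525 CPM of Kcnj8, and cell P2G8 of order 2 held 761 CPM. These cells had 11, 11 and 12 of 13 endothelial genes and 34.9, 23.8 and 40.9 CPM of Lepr, though the sort had excluded CD31, the product of Pecam1: they held 733, 218 and 422 Pecam1 counts. They also held Abcc9, at 479, 862 and 391 CPM, and were the 3 cells in which both channel genes were present. At least 3 endothelial genes were present in 5 cells, 4 Tomato+ and 1 Tomato-. Without those 5 cells Kcnj8 stood at 2.39 CPM in Tomato+ and 6.87 CPM in Tomato- cells of order 1, and at 0.164 CPM in Tomato+ and 0.0217 CPM in Tomato- cells of order 2, and the call was lost. It was also lost without set P3 of order 1 (mean log2 ratio 0.69 against 3.66) and without set P2 of order 2 (1.73). The gene most like Kcnj8 across cells was Fabp4, a fatty acid binding protein of capillary endothelium and fat cells, with r of 0.54 in order 1 and 0.60 in order 2, as a description over cells that share libraries and depth. In code D81, which holds P3B1 and P3B2, 10 of 11 cells had Kcnj8 counts.

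The contractile members Acta2 (smooth muscle actin), Myh11 (smooth muscle myosin heavy chain), Tagln (the actin-binding protein SM22) and Myl9 behaved unequally. Myh11 stood at 3.39 CPM in Tomato+ and 70.9 CPM in Tomato- cells of order 1, and at 3.28 CPM in Tomato+ and 9.55 CPM in Tomato- cells of order 2, with log2 ratios of -4.03 and -1.30. Without the 8-member cell the Tomato- level of order 1 was 0.124 CPM and the ratio there was 1.97, so the call was lost and the direction turned in that order. Order 2 kept 1 Tomato+ cell with Myh11 (2.08%, 0.0527 to 11.1) and 10 Tomato- cells (7.09%, 3.45 to 12.7). The intervals overlap, but they take cells as independent and cannot decide whether the groups differ. Acta2 was at 2.20 CPM in Tomato+ and 10.2 CPM in Tomato- cells of order 1, and at 2.48 CPM in Tomato+ and 2.06 CPM in Tomato- cells of order 2. Without the 8-member cell the Tomato- level of Acta2 in order 1 was 0.0619 CPM, and the log2 ratio there was 1.59 in place of -1.80. Tagln was at 6.33 CPM in Tomato+ and 23.97 CPM in Tomato- cells of order 1, and at 0.161 CPM in Tomato+ and 3.07 CPM in Tomato- cells of order 2. Myl9 was at 205 CPM in Tomato+ and 310 CPM in Tomato- cells of order 1, and at 144.6 CPM in Tomato+ and 117.6 CPM in Tomato- cells of order 2. Its median cell held 45.7 CPM in Tomato+ and 24.3 CPM in Tomato- cells of order 1, and 96.9 CPM in Tomato+ and 76.2 CPM in Tomato- cells of order 2. In GRCm38, Acta2 lies on chromosome 19 at 34241090-34255590 and Myh11 on chromosome 16 at 14194535-14291372, both on the minus strand. Tagln lies on chromosome 9 at 45929619-45936058 (minus) and Myl9 on chromosome 2 at 156775420-156781658 (plus). Acta2 and Myl9 have close paralogs with which reads may be shared, and Tagln overlaps exons of Pcsk7 and Gm48529 on the other strand.

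Acta2, Myh11 and Tagln were each present in few cells and met in few. Myl9 was present in 57.8% of all cells and in most cells with each of them. Of 16 cells with Myh11, 15 had Myl9, 2 had Tagln and 1 had Acta2. Of 19 cells with Tagln, 18 had Myl9 and 1 had Acta2. Of 7 cells with Acta2, 6 had Myl9. The 1 cell shared by Acta2 and Myh11, and by Acta2 and Tagln, was the 8-member cell. Cells with 100 CPM of Myh11 or more numbered 9, of which 8 had at least 1000 CPM of Lepr, whereas of 4 such Acta2 cells 1 did. Among all 386 kept cells, 66 were under 1000 CPM of Lepr. The Acta2 cells with little Lepr included P1D8 of order 1 (Tomato+), with 177.2 CPM of Acta2, 33.6 CPM of Lepr and 38027 CPM of the bone collagen gene Col1a1. Median Lepr was 4498 CPM in Myh11 cells, 5974 CPM in Tagln cells, 183.5 CPM in the 7 Acta2 cells and 4202 CPM in Myl9 cells.

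Notch3, the receptor through which vessels maintain mural cells, was the second most widespread member and lies on chromosome 17 at 32120820-32166852 (minus strand). It stood at 117.7 CPM in Tomato+ and 105.7 CPM in Tomato- cells of order 1, and at 72.4 CPM in Tomato+ and 88.2 CPM in Tomato- cells of order 2. The log2 ratios were 0.15 and -0.28. The medians of 3.54 CPM in Tomato+ and 4.06 CPM in Tomato- cells of order 1, and of 9.31 CPM in Tomato+ and 25.97 CPM in Tomato- cells of order 2, lay within ranges that overlap. The title sets varied more than the groups: in order 1 the Tomato+ set P1 was at 148.9 CPM, set P3 at 24.5 CPM and the 5 cells of set P2 at 0.918 CPM. Those 5 cells had no member present and a summed Lepr level of 84.9 CPM.

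The shares of cells with Notch3 and Myl9 were set beside the Lepr level of the cells. In order 1 Notch3 was present in 43.2% of cells with at least 1000 CPM of Lepr (35.1 to 51.6) and in 18.4% of the 49 cells below it (8.76 to 32.02). In order 2 the shares were 59.3% of the high-Lepr cells (51.6 to 66.7) and 11.8% of the 17 low-Lepr cells (1.46 to 36.4). Depth differed between the classes, with median totals of 816573 and 309985 counts in order 1, and of 644130 and 842169 counts in order 2. After each cell was thinned to 150000 counts, leaving out as too shallow 4 Tomato+ and 7 Tomato- cells of order 1 and 6 Tomato- cells of order 2, Notch3 had a count in 54.2% of high-Lepr and 38.1% of low-Lepr cells of order 1, and in 64.1% and 25% in order 2. Myl9 was present in 64.2% of high-Lepr and 16.3% of low-Lepr cells of order 1, and after thinning had a count in 74.3% and 64.3%. In order 2 Myl9 was present in 67.4% and 23.5%, and after thinning in 74.9% and 50%.

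**Figure D4:**
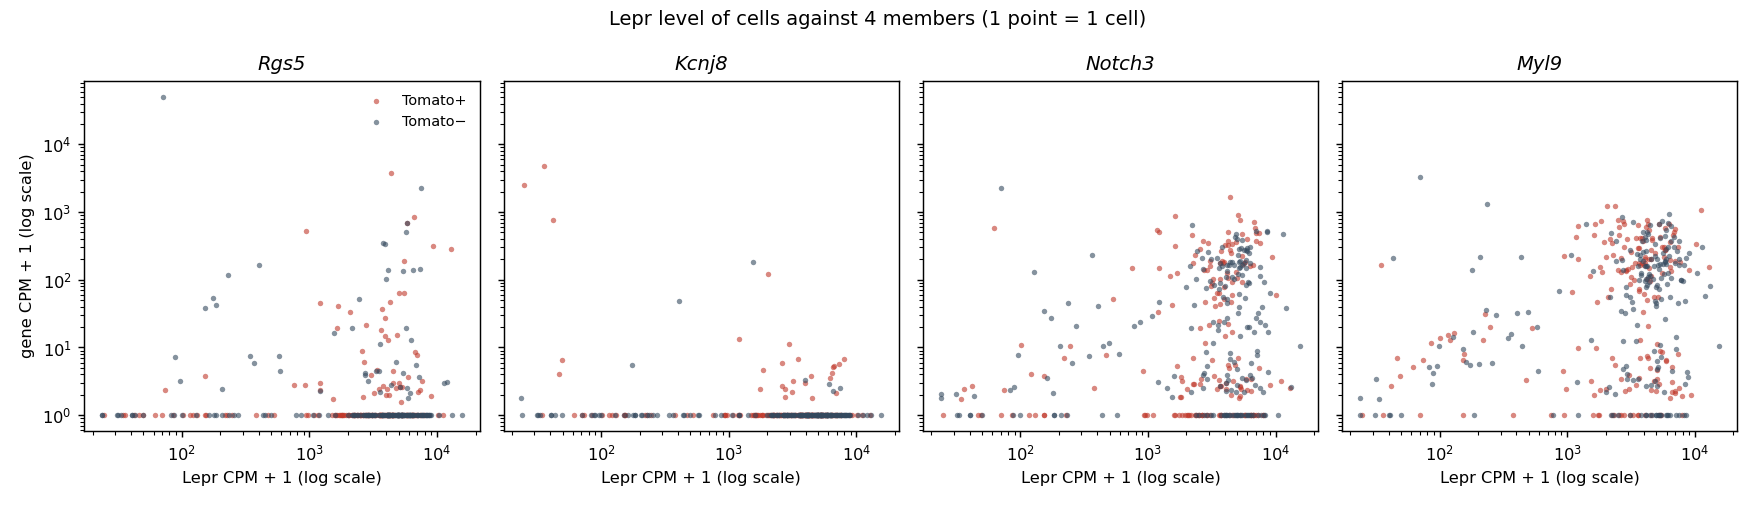
CPM + 1 of Rgs5, Kcnj8, Notch3 and Myl9 in each cell against CPM + 1 of Lepr, both on log axes, with Tomato+ cells in red and Tomato- cells in dark. The highest Rgs5 cell (69.7 CPM of Lepr) and the 3 highest Kcnj8 cells (23.8 to 40.9 CPM of Lepr) lie at the left edge, while all but 5 of the 110 cells with 100 CPM of Notch3 or more lie at 1000 CPM of Lepr or above.

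The gene most like Notch3 was Pdgfrb, the pericyte receptor for platelet-derived growth factor B, with r of 0.38 in order 1 and 0.33 in order 2, followed by Il34 (0.31 and 0.30). Pdgfrb was present in 96.6% of Notch3 cells and 81.3% of the 209 others. Heyl, a Notch target in mural cells, was present in 31.1% of Notch3 cells and 15.8% of the others, Hes1 in 66.1% and 49.3%, and the ligand gene Jag1 in 61.02% and 43.1%. For Myl9 the most alike genes were Islr (0.38 and 0.36) and Gas6 (0.35 and 0.37), and for the mean of all members Col4a1, a basement membrane collagen, (0.30 and 0.32) and Serpinh1, a collagen chaperone (0.30 and 0.30). These are descriptions over 8319 genes in cells that share libraries and differ in depth.

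The surface members Mcam (the adhesion molecule CD146) and Cspg4 (the proteoglycan NG2) were the rarest on a per-length scale. Mcam stood at 0.332 CPM in Tomato+ and 8.24 CPM in Tomato- cells of order 1, and at 0.193 CPM in Tomato+ and 4.50 CPM in Tomato- cells of order 2. Cell N2D11 held 93.4% of the Tomato- Mcam counts of order 1. Without the highest Mcam cell of each group in each order, N2D11 among them, the mean log2 ratio was -1.23 in place of -2.50. Mcam was present in 1 Tomato+ cell (0.730%) of order 1 and 2 of the Tomato- cells there (3.33%), and in order 2 in 1 Tomato+ cell (2.08%) and 8 Tomato- cells (5.67%). All 6 cells with 100 CPM or more were Tomato-, and 4 of them had under 1000 CPM of Lepr. Cspg4 had 1 count in the Tomato+ cells and 285 in the Tomato- cells of order 1, of which cell N2D11 held 283. In order 2 Cspg4 stood at 0.386 CPM in Tomato+ and 1.54 CPM in Tomato- cells. None of the Cspg4 cells had Rgs5 present except N1D2 of order 2, with 132.6 CPM of Rgs5 and 133.8 CPM of Cspg4. Both genes lie on the plus strand of chromosome 9, Mcam at 44134469-44142727 and Cspg4 at 56865033-56899870. Mcam overlaps Gm10687 on the opposite strand, and Notch3 overlaps Gm17276.

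Co-expression in the same cell was tallied next. No member was present in 89 cells (23.1%), 1 member in 30.1% and 2 members in 28.8% of cells, 3 in 54 cells, 4 in 15 and 8 in 1 cell; no cell had 5, 6 or 7. Cells with 4 or more members numbered 5 among Tomato+ cells (2.70%, 0.883 to 6.19) and 11 among Tomato- cells (5.47%, 2.76 to 9.58). The intervals overlap, but they take cells as independent and cannot decide whether the groups differ. By order these were 4 Tomato+ (2.92%) and 2 Tomato- cells (3.33%) in order 1, and 1 Tomato+ (2.08%) and 9 Tomato- cells (6.38%) in order 2. The most frequent pair was Notch3 with Myl9, found together in 70.1% of Notch3 cells, or 55.6% of Myl9 cells. Rgs5 and Abcc9 met in 9 cells, 19.6% of Rgs5 cells and 16.7% of Abcc9 cells.

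The 8-member cell was cell N2B10 of order 1, a Tomato- cell with 573566 counts in 3814 genes. Rgs5 was the most abundant gene of the cell at 50179 CPM, and the next highest cell had 3747 CPM. Myh11 stood at 4059 CPM, Myl9 at 3283, Notch3 at 2263, Abcc9 at 1091, Tagln at 586, Acta2 at 579 and Mcam at 29.6 CPM, and Kcnj8 and Cspg4 had no count. Rgs5, Acta2, Myh11, Tagln, Notch3 and Myl9 were higher there than in the other 385 cells. Lepr was 69.7 CPM, against a median of 3931 in the others, and Cxcl12 was 581 CPM against 45095. Its 40 Lepr counts were 0.572% of the highest Lepr count in its library code, and its 333 Cxcl12 counts 0.594%. Of the 14 genes listed for Lepr+ stroma, 12 were present in the cell. That number separates cells poorly, since cells with 0 or 1 members held 9 to 14 of them. The Kcnj8-rich cells P3B1, P3B2 and P2G8 held 10, 9 and 10 of the same list. Ebf3, a transcription factor gene of that list, was at 345 CPM against a median of 43.3 in the others and at 32.3% of the highest count in the code, and the lipase gene Lpl was at 896 CPM against 1287 and at 12.7%. Kitl was at 2.85% and Vcam1 at 1.13% of the highest count in the code. The other stroma genes present in the cell were each under 1% of it. Pdgfra, the gene of the sort's positive marker, had 5 counts and Pdgfrb 3, while Ptprc and Pecam1 had 0.

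Other mural genes were present in that cell too. Of 14 other pericyte genes measured, 7 were present, which was also the highest number in any other cell. The list summed to 9213 CPM against a median of 992 CPM in the others. Cox4i2, a subunit of a mitochondrial oxidase listed among pericyte genes, had 1423 CPM and the Notch target Heyl 588 CPM. Of 14 other contractile genes 8 were present, as in cell N1E2 of order 2, which had 3770 CPM of Lepr. The list summed to 6024 CPM against a median of 2308 CPM in the others. Among cells with 0 or 1 members its sum reached 11389 CPM. Tpm1 (1569 CPM), Mylk (837) and Cald1 (921), genes of the contractile apparatus that were present in 325 to 380 of 386 cells, were within the range of the others. The muscle filament gene Des had 1091 CPM, above the 659 CPM of the next cell, and Ndufa4l2 had 1552 CPM against 237; these 2 were chosen after their values were seen. Of 13 endothelial genes, Flt1 (633 CPM) and Esam (1213 CPM) were present, and Fabp4 stood at 5682 CPM. Of 10 Sca1+ fibroblast genes 3 were present, Ly6a (453 CPM), Gsn (1471.5 CPM) and Dcn (47.1 CPM). Of 8 osteoblast genes Ibsp and Spp1 were present, and that list summed to 300 CPM against a median of 13921 CPM in the others. No gene of the myeloid, lymphoid, erythroid or megakaryocyte lists was present.

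**Figure D5:**
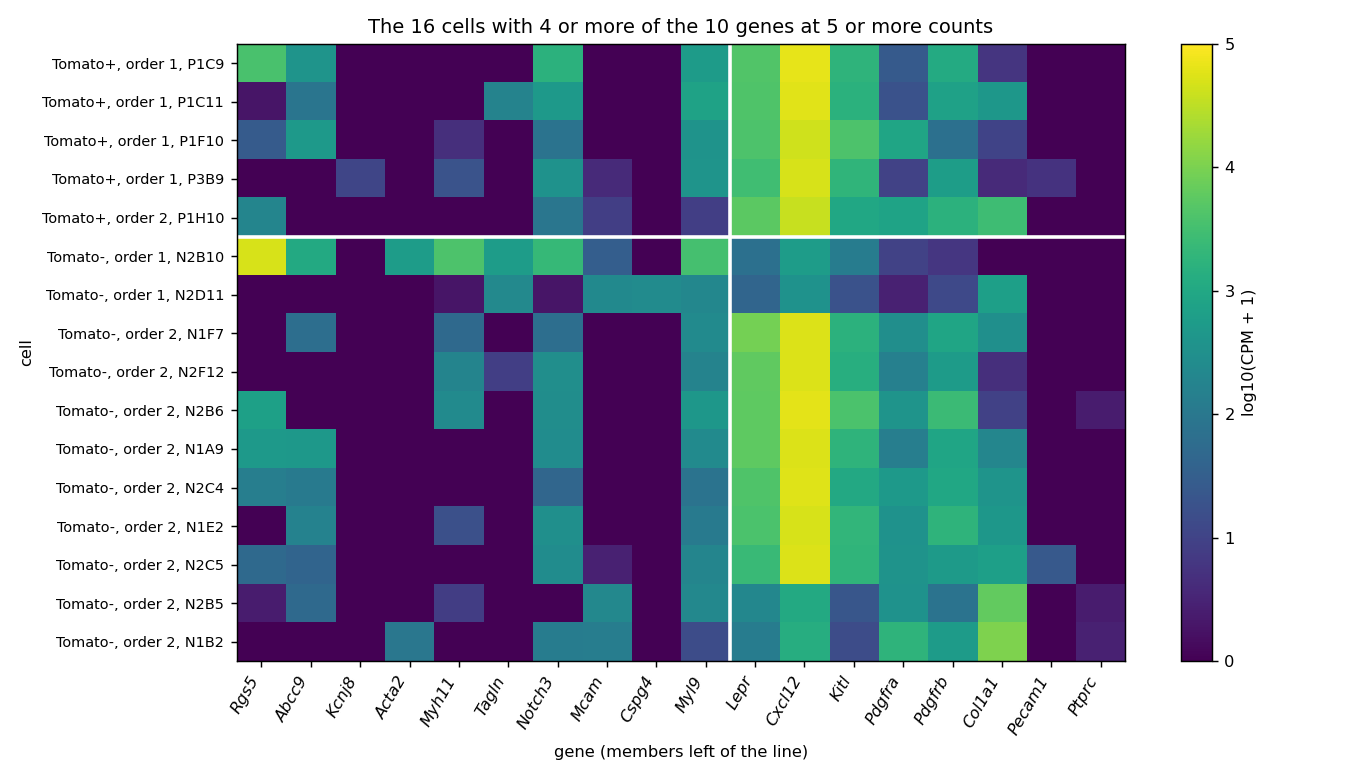
Log10(CPM + 1) of the 10 members (left of the white line) and 8 other genes in the 16 cells with 4 or more members, with the 5 Tomato+ cells above the 11 Tomato- cells. N2B10 of order 1 alone combines Rgs5, Myh11, Acta2 and Tagln, and 12 of the 16 rows are bright for Lepr and Cxcl12.

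The other 15 cells had 4 members each, and in 12 of them Lepr lay between 2425 and 8984 CPM. In these 12 the members were low beside N2B10, with Notch3 and Myl9 present in each, and their member sums reached at most 6352 CPM against its 62070 CPM. Besides that pair they mostly held Rgs5, Abcc9 or Myh11. The other 3 cells were Tomato- with little Lepr. N1B2 of order 2 (127.3 CPM of Lepr) had Acta2, Notch3, Mcam and Myl9, with 1817 CPM of Pdgfra, 10719 CPM of Col1a1 and 8 of 10 genes of Sca1+ fibroblasts. N2B5 of order 2 (206 CPM of Lepr) had Abcc9, Myh11, Mcam and Myl9, with 6171 CPM of Col1a1 and 6 of those 10 genes. Ly6a, the gene of Sca1, stood at 1941 CPM in N1B2 and at 0 CPM in N2B5. N2D11 of order 1 (42.1 CPM of Lepr) had Tagln at 225, Mcam at 232, Cspg4 at 259 and Myl9 at 209 CPM with no Rgs5. Pecam1 was at 24.3 CPM in N2C5 of order 2 and at most 4.41 CPM in the other 15, and Ptprc was at most 1.93 CPM in all 16.

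Across the 16 cells the Lepr level was split. The median was 3442 CPM in cells with 4 or more members and 2544 CPM in cells with 0 or 1 in order 1, and 4824 and 4289 CPM in order 2. The mean log2(CPM + 1) of Lepr in cells with 4 or more members, minus that in cells with 0 or 1, was -0.67 in order 1 and 0.04 in order 2, -0.32 on average, and 0.06 on average without the 8-member cell. The median and the mean of order 1 differed in sign. In that order Lepr was under 1000 CPM in 33.3% of the cells with 4 or more members and in 32.5% of those with 0 or 1.

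Genes that act with the panel were compared between Tomato+ and Tomato- cells by the same size rule. Of 14 other pericyte genes measured, 11 reached the level minimum and none was called in either direction. Their median log2 ratio was -0.21 against 0.02 for all genes, with -0.38 in order 1 and 0.35 in order 2, and it was 0.56 without the 8-member cell. Pdgfrb, at 0.77 in order 1 and 0.28 in order 2, Ednra (endothelin receptor, -0.88 and -0.04), Cox4i2 (-0.61 and 0.21) and Heyl (0.67 and 0.46) were the genes of that list found in the highest numbers of the 16 cells, at 15, 11, 9 and 7. None of 14 other contractile genes was called (median 0.12, 8 at the level minimum), none of 9 Notch ligands and targets (0.22, 6 at the minimum), none of 3 regulators measured of serum response factor genes (0.13, 2 at the minimum) and neither of 2 platelet-derived growth factor receptors (0.08). Myocd, the smooth muscle coactivator, and Pdgfb had no count in any cell. Of the lists for other cells, 8 of 13 endothelial genes were higher in Tomato+ cells (median 2.35), a direction called in 5.15% of all genes. Of 10 Sca1+ fibroblast genes 5 were lower (median -1.76, 8 at the level minimum), a direction called in 5.98% of all genes. These 5 were Gsn, present in 236 cells, Ly6a in 33, Cd34 in 10, Mfap5 in 7 and Col14a1 in 4. Of 12 myeloid genes 2 were lower, with 3 at the level minimum. The myeloid median was 0.38 in order 1 and -5.13 in order 2. Of 14 genes of Lepr+ stroma 1 was higher, and none of the osteoblast, erythroid or lymphoid genes was called, with 6, 3 and 1 of 8 measured in each list at the level minimum. No megakaryocyte or skeletal muscle gene reached that minimum, so none could be called. The summed endothelial list was 0 in the median cell, and 5 cells held 3 or more of its genes. The part of these cells in the members' ratios was measured for Kcnj8 and Abcc9 above: Abcc9 stayed lower without the 5 cells, at -2.38.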

How the data were processed

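Single cells were measured by RNA sequencing after whole-transcriptome amplification, per the labels' protocols, which mention no molecular identifiers. The deposited values are expected counts per gene and cell, per the file headers and values, of which 4.91% of those above 0 are not whole. The tools listed in the submitters' processing notes are StringTie 1.3.3b, HTSeq 0.6.0 and HISAT, with build GRCm38. Their roles, the annotation and any strand setting are not given in the sources used. Intervals therefore cover counting error only, and reads of 1 amplified molecule are not independent.

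Expected counts were rounded to whole numbers (Python 3.11.15, numpy 2.4.6, pandas 2.3.3, scipy 1.17.1). Columns name the set and well but match no title of a single cell alone, so each was assigned to its group; 0 columns were left unused and 0 were identical. The prefix of a column was tied to title order 1 or 2 through set names that occur in only 1 order. Kept cells were 185 Tomato+ and 201 Tomato-. Their counts were added up by group and order and divided by the summed total to give CPM. Ratios use CPM + 1, which understates changes of low genes, and are averaged over the orders. Exact Poisson and Clopper-Pearson 95% intervals were used, and no count model or test, since cells of 1 sample are not replicates. Alternatives covered the pseudocount, scaling by TMM (edgeR 4.0.16) or DESeq2 1.42.0 size factors, presence cuts, thinning, library filters and left-out cells and sets. No doublet caller was run. The size rule was tested on simulated Poisson sums of the groups, which hold no variation between cells. The ranking of alike genes was tested with a copied gene. Presence cuts, thinning and library filters were not simulated.

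The members, lists, cuts and tests were chosen with earlier results of these data known. Named genes are all members, up to 4 genes per list that were present in the highest number of cells with 4 or more members, and the genes most like the members by Pearson r of log2(CPM + 1) in the weaker of the 2 orders (12 for the mean of the members and 2 per member, of which those described are given). Gene positions are from GENCODE on GRCm38. The markers of 1 other cell type are not reported here.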

Additional observations from a re-analysis of the deposited data

How the results depend on the processing

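Of the 10 members, 4 were called as reported, and 2 without each member's highest cell in each group and order (Rgs5 and Abcc9) or 7 with no minimum level (Tagln, Mcam and Cspg4 added). The other 19 settings gave 3 to 6 called members. Rgs5 and Abcc9 were called in all 21 alternatives that gave a value. The members' median log2 ratio of -1.66 was -2.16 with a pseudocount of 0.1 CPM, -0.93 with 5 CPM, -0.80 with the orders summed, -0.78 without those highest cells, and -2.05 without cells holding Ptprc or Pecam1. Chosen after seeing the data, leaving out the 8-member cell gave -0.65 and leaving out the 5 cells with endothelial genes gave -2.03. Kcnj8 turned to -0.50 without Ptprc or Pecam1 cells and to -0.51 without the endothelial-gene cells, and Myh11 turned to 0.33 without the 8-member cell; these follow from the cells left out. Without that cell the uncalled Acta2 and Notch3 also turned, to 0.89 (-0.81 with it) and 0.26 (-0.06 with it). With order 1 limited to the library codes that hold both groups, also chosen after seeing the data, Kcnj8 was not called (0.69).

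Cells with 4 or more members made up 25.9% of Tomato+ and 22.9% of Tomato- cells when 1 count was enough. With 3 or more members they made up 15.7% of Tomato+ and 20.4% of Tomato- cells, and with 5 or more members 0% of Tomato+ cells and 0.498% of Tomato- cells. The Lepr difference of -0.32 was 0.63 at 1 count, 0.0098 at 10 counts, 0.74 at 3 or more members, -4.39 at 5 or more members and 0.056 without the 8-member cell; the cause was not tested. Leaving out set N2 of order 1 gave no ratio, because it is the set that holds all Tomato- cells of that order. No paired analysis was possible because the columns carry no replicate number that pairs single cells across groups and no result comes from a test. Limiting order 1 to the 7 library codes shared by both groups selected cells and did not pair them within a code. Depth limits the rare members: 3 counts in the Tomato+ cells of order 2 equal 0.0965 CPM.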
